A study of Mus musculus with 18 samples.

Results

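Type I interferon response genes are the genes that cells switch on when interferon alpha or beta binds its receptor. The set described here holds 38 such genes, chosen by gene name and not by a measured value, out of 49585 genes in the count table. All 38 were found by their Ensembl identifiers and all 38 passed the filter on low counts. They comprise 4 sensors of foreign or misplaced nucleic acid (Ddx58, Ifih1, Dhx58, Zbp1), 3 transcription factors of the pathway (Stat2, Irf9, Irf7), 4 Ifit genes, 6 oligoadenylate synthetase genes, 2 Mx genes, Isg15 and its protease Usp18, 5 genes of the ADP-ribosylation group (Parp9, Parp10, Parp12, Parp14 and Dtx3l, the partner of Parp9), 8 further antiviral restriction genes and 4 other induced genes (Ifi44, Ifi35, Rtp4, Xaf1).

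RNA was sequenced from leukocytes of Kaede mice, whose photoconvertible protein turns from green to red under violet light, so that cells present in a lit tissue can be recognised later wherever they are. The 18 libraries fall into 6 groups of 3. Mice given in vitro polarised OT-II Th1 cells and immunised with ovalbumin in complete Freund's adjuvant were challenged with heat-aggregated ovalbumin (HAO) in the footpad or the ear pinna, and the tissue was photoconverted. CD45+ cells that stayed in the inflamed joint or ear are called joint or skin nonmigrated, and those recovered from the lymph node are called joint or skin migrated. The joint and skin steady-state node groups hold CD45+ cells labelled as having reached the node from a joint or ear without inflammation; their sample titles hold PBS and KG for the joint and Naive for the ear. The titles of the inflamed skin groups hold KR, and the labels explain neither KG nor KR. Which Kaede colour was sorted for the steady-state groups is therefore uncertain, and that their cells came from the joint or ear rests on the labels alone. The labels also do not say which of the steps above these groups received. Each sample was pooled from several mice, so p-values measure the spread between pools. Every comparison is of mixed leukocytes, in which fewer cells of a type and less RNA per cell cannot be told apart.

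The libraries held 19239531 to 43814403 counts. The 6 libraries of inflamed skin had names of their own pattern in the table, the lowest depths (19239531 to 22528895 counts) and the lowest shares of reads outside genes (0.0925% to 0.135%, against 0.227% to 0.562% in the other 12). Inflamed joint and inflamed skin therefore cannot be told apart from any difference in handling between these sets, and the same holds for skin migrated cells against the skin steady-state node. Nor can the joint and skin steady-state nodes, titled PBS and Naive, be told apart from any difference in treatment. Skin migrated and skin nonmigrated libraries both belong to the set of 6. Ptprc, which encodes CD45, lay between 1155 and 2530 CPM, counts scaled to the size of the library, in every library. Markers of neutrophils, summed over 7 genes, reached 5141 to 15980 CPM in joint nonmigrated and 1583 to 2600 CPM in skin nonmigrated cells, 13.4 to 89.8 CPM in migrated cells, 418 to 820 CPM in the joint steady-state node and 11.1 to 17.9 CPM in the skin steady-state node. Summed markers of monocytes and macrophages, 9 genes, lay at 2989 to 10390 CPM in nonmigrated cells and at 167 to 745 CPM in the 4 node groups. The 4 markers of mature dendritic cells were highest in migrated cells (2683 to 7630 CPM), and the 4 B cell markers in the steady-state nodes (2187 to 3739 CPM). The 4 mature dendritic cell markers also lay at 389 to 1709 CPM in skin against 102 to 154 CPM in joint nonmigrated cells. The keratinocyte markers Krt5 and Krt14 summed to 22.0 to 252 CPM in skin nonmigrated cells and to at most 0.547 CPM in any other library, and both were called lower in joint than in skin nonmigrated cells. The 3 fibroblast markers lay at 27.3 to 171 CPM in nonmigrated cells and at no more than 1.52 CPM in the node groups. The part of this composition in the results below was not tested.

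As background, type I interferons bind a receptor made of Ifnar1 and Ifnar2, whose kinases Jak1 and Tyk2 activate transcription factors, Stat2 among them. With Irf9 these form the complex ISGF3, which binds a DNA element called the interferon-stimulated response element (ISRE) in front of the induced genes. Interferon gamma acts through a separate receptor and another element, the gamma-activated sequence (GAS), and many genes answer to both.

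The RefSeq promoter windows, GRCm38.p6, 250 bases before to 50 after each start, were matched for 28 of the 38 members. The core of the ISRE, GAAA and a second GAAA 2 bases further on, on either strand and with overlapping matches counted, was present in 15 of these 28 (53.6%), against 3.99% of 27025 genes. The GAS core, TTC and GAA parted by 3 bases, was present in 7 of 28 (25%), against 9.55% of all genes. The bases before the start are shown for the 4 members with the core, and the 2 without, that had the smallest adjusted p between joint and skin nonmigrated cells. Capitals mark every match to the ISRE core. The matches began 104 and 85 bases before the start of Ifit1, 120 before that of Rsad2, 222 before that of Stat2, and 78, 72 and 66 before that of Isg15, where they overlap. The windows lie on the plus strand at chr19:34640639-34640888 (Ifit1), chr10:128270248-128270497 (Stat2), chr19:34550444-34550693 (Ifit2) and chr12:26468965-26469214 (Cmpk2), and on the minus strand at chr12:26456453-26456702 (Rsad2) and chr4:156200819-156201068 (Isg15).
Ifit1: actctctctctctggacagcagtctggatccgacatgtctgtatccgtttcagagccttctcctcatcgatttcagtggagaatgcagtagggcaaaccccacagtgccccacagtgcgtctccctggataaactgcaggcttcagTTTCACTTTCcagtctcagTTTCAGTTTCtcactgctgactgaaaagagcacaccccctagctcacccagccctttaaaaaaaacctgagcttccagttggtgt
Rsad2: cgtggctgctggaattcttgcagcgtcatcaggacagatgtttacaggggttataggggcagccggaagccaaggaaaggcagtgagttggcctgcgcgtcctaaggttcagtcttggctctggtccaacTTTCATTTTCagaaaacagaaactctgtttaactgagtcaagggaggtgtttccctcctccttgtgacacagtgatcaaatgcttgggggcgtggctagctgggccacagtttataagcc
Stat2: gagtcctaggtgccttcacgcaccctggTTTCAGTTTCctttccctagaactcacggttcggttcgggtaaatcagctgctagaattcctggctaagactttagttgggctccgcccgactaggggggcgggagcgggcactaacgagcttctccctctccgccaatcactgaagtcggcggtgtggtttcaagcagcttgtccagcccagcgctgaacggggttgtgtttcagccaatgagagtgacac
Isg15: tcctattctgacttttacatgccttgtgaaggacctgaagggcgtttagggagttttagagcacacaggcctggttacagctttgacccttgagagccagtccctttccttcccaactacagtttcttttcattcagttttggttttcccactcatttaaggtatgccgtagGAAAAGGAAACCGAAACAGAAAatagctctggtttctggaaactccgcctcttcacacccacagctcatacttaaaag
Ifit2: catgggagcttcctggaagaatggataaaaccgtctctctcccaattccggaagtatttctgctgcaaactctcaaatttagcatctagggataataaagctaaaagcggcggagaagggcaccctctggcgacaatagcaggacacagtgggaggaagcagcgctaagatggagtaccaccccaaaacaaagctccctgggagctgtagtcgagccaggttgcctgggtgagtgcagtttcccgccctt
Cmpk2: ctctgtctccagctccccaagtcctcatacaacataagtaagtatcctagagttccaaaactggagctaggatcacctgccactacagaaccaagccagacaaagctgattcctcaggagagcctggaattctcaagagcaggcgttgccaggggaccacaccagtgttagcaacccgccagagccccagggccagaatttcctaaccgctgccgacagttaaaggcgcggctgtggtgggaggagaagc

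Skin nonmigrated cells carried the highest level of nearly the whole set. Averaged over the members, log2(CPM + 1) was 7.07, 7.16 and 7.26 in the skin nonmigrated libraries and 5.89, 5.78 and 5.64 in the joint nonmigrated ones. It lay at 5.21, 5.18 and 5.19 in the joint steady-state node, at 4.98, 5.07 and 5.08 in skin migrated cells, at 4.75, 4.99 and 4.83 in the skin steady-state node and at 4.53, 4.67 and 4.63 in joint migrated cells. The ranges of skin migrated cells and the skin steady-state node overlapped, and no other neighbours in this order did. Members took 0.599% to 0.673% of all counts in skin nonmigrated cells and 0.186% to 0.296% in the other 15 libraries.

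**Figure D1:**
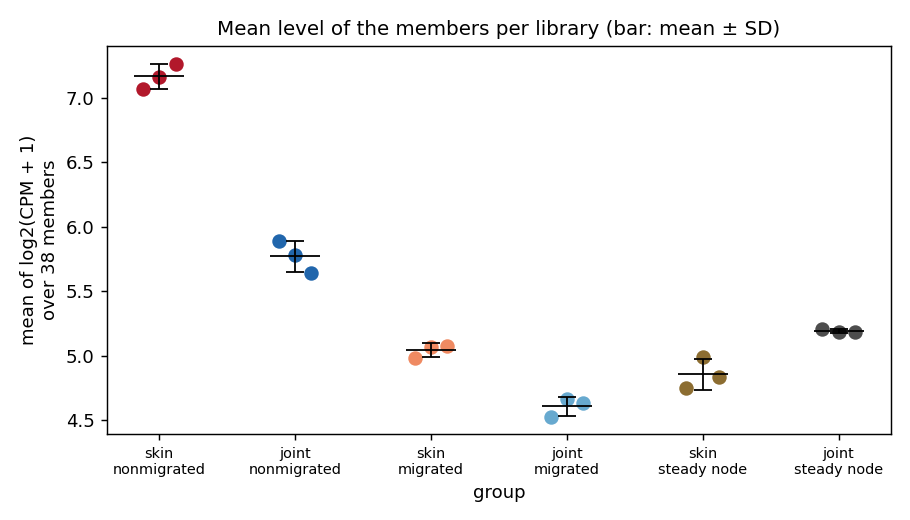
Mean of log2(CPM + 1) over the 38 members (vertical axis) in each of 18 libraries, by group; points are libraries, bars the mean ± SD of 3. The skin nonmigrated libraries, at 7.07 to 7.26, lie above all others, and the joint migrated ones, at 4.53 to 4.67, lie lowest.

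Skin nonmigrated cells held the highest mean for 35 of the 38 members, and for 29 of these all 3 libraries lay above every library of the other groups. Of the 18156 genes expressed, 21% had their highest mean in skin nonmigrated cells and 7.7% lay there above every other library. The exceptions were Ddx58, which encodes the RNA sensor RIG-I and was highest in the joint steady-state node (168 ± 13 CPM, SD, n = 3), Sp100, a nuclear body protein that was highest in the skin steady-state node (669 ± 6.3 CPM), and Ifitm3, a membrane protein that blocks virus entry and was highest in joint nonmigrated cells (386 ± 73 CPM). Joint migrated cells held the lowest mean for 20 members, as they did for 6.68% of the genes expressed. Across the 18 libraries, the correlation of each member with the mean of the others ranged from -0.43 for Sp100 and 0.046 for Ddx58 to 0.98 for Cmpk2, a description in which libraries of a group share their tissue. The 5 genes outside the set with the highest correlation with its mean level were Scimp (Pearson's r = 0.972), Rhov (0.971), Sncaip (0.971), Slfn2 (0.970) and Tnfaip8l3 (0.968).

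**Figure D2:**
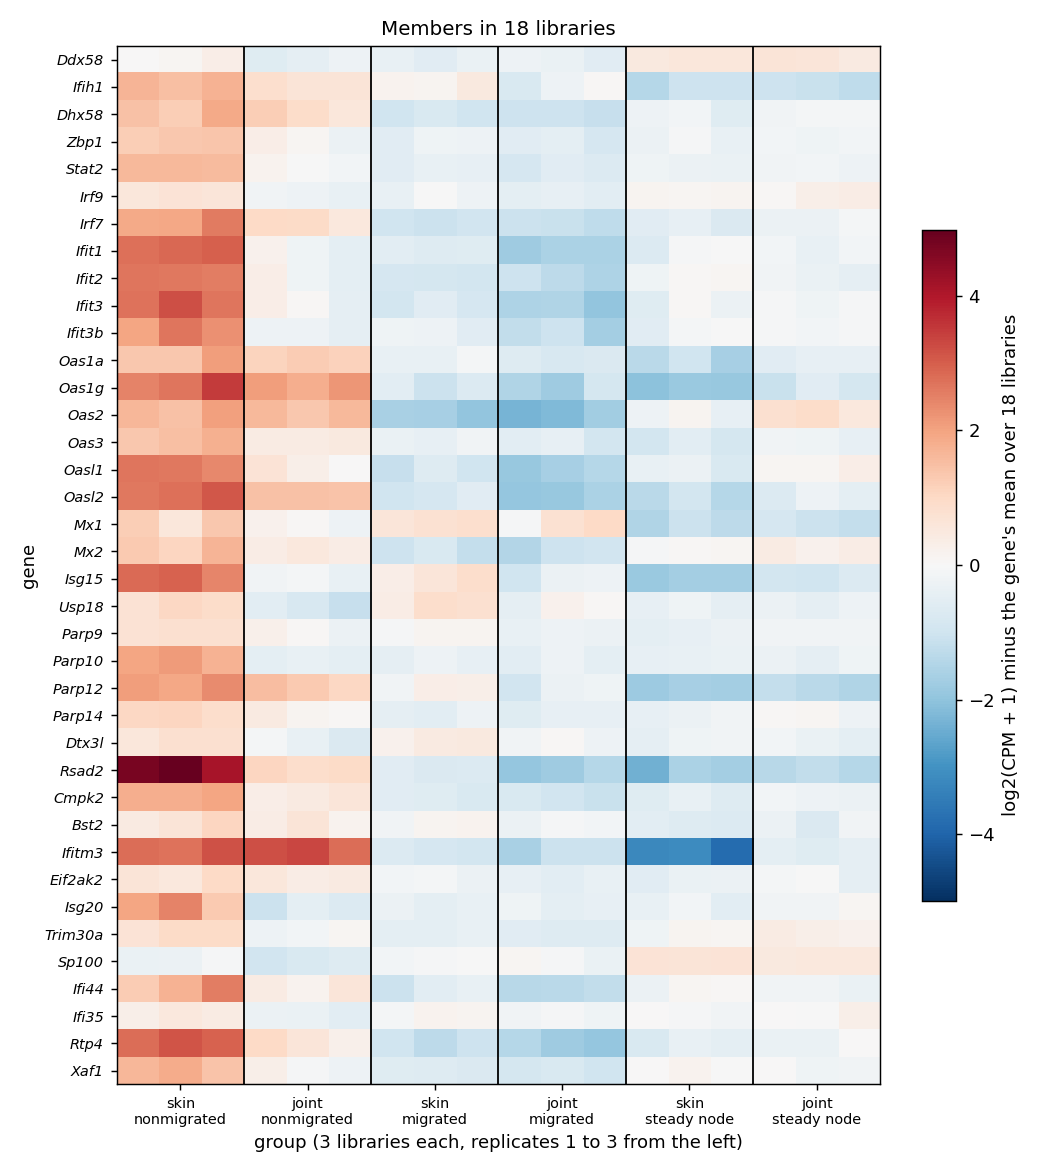
Level of each member (rows, ordered by role) in 18 libraries (columns, 3 per group), as log2(CPM + 1) minus the gene's own mean over the libraries. The mean of the skin nonmigrated columns is the highest for 35 of 38 rows, and in 29 all 3 of them lie above every other column; Ddx58, Sp100 and Ifitm3 have their highest mean elsewhere.

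The first comparison asked how cells that stayed in the inflamed joint differ from those that stayed in the inflamed skin. A gene was called when edgeR's adjusted p, over all genes tested, was under 0.001 and its absolute log2 fold change above 1. Of the 38 members, 19 were lower in joint than in skin nonmigrated cells and 0 were higher, where 3.05% of 16777 genes were called in either direction 1.9% lower and 1.14% higher. The members' median log2 fold change was -1.12, against 0.011 for all genes. For 34 members all 3 joint libraries lay below all 3 skin libraries, which held for 18.6% of the genes expressed. When edgeR was fitted to these 6 libraries alone, 0 of 15385 genes (0%) and so 0 members were called. In that smaller fit the members' median was -1.11, their lowest adjusted p was 0.00147, and the unadjusted p of 33 members lay under 0.05. In the main fit the unadjusted p lay under 0.05 for 35 members and for 6794 of 16777 genes.

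Parp10, an ADP-ribosyltransferase, had the smallest adjusted p. It lay at 369, 406 and 312 CPM in the skin nonmigrated libraries and at 66, 72.7 and 66.1 CPM in the joint nonmigrated ones (log2 fold change -2.41 ± 0.12, SE, adjusted p = 3.16e-06). The remaining 12 libraries lay between 63.5 and 79.6 CPM, so that skin nonmigrated cells stood alone. Exons of Parp10 overlap those of Plec on the same strand. Plec did not share the pattern, with 758 ± 37 CPM in skin and 971 ± 160 CPM in joint nonmigrated cells (log2 fold change 0.35 ± 0.16, adjusted p = 0.125).

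All 4 Ifit genes, which encode proteins that bind foreign RNA, fell together. Ifit1 lay at 168, 183 and 197 CPM in skin and at 28.7, 21 and 17 CPM in joint nonmigrated cells (-3.04 ± 0.17, adjusted p = 5.69e-06). The Ifit genes ranged from -3.04 to -2.74, and they lie within 99.3 kb of chromosome 19. Ifit3 and Ifit3b are 98% identical over 1697 aligned bases of their transcripts, so that the division of reads between them is uncertain.

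Rsad2, which encodes viperin, showed the largest difference of the set. It was measured at 781, 922 and 502 CPM in skin against 60.7, 52.6 and 55.5 CPM in joint nonmigrated cells (-3.71 ± 0.23, adjusted p = 7.81e-06). Its neighbour Cmpk2, a mitochondrial nucleotide kinase, fell by 1.44 on the log2 scale (adjusted p = 3.98e-05). Isg15, the ubiquitin-like modifier, lay at 192, 211 and 146 CPM against 23.3, 24.7 and 20.2 CPM (-3.01 ± 0.23, adjusted p = 2.94e-05), and Usp18, which removes it from proteins, also fell (-1.74 ± 0.21). Isg20, an exonuclease, was at 80.4 ± 31 CPM in skin and 11.3 ± 2.4 CPM in joint (-2.83 ± 0.26).

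The transcription factors followed. Stat2 lay at 418, 407 and 403 CPM in skin against 151, 131 and 123 CPM in joint nonmigrated cells (-1.60 ± 0.11, adjusted p = 2.17e-05). Irf7, which amplifies interferon production, lay at 402, 407 and 650 CPM against 214, 207 and 157 CPM (-1.34 ± 0.18, adjusted p = 0.000519). Irf9 lay at 158, 174 and 164 CPM against 94.9, 89 and 82.8 CPM, without overlap, but its log2 fold change of -0.90 ± 0.10 stayed inside the threshold of 1.

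Other members were not called between the tissues. Oas2, a synthetase of the RNase L activator, was at 135 ± 29 CPM in skin and 117 ± 12 CPM in joint nonmigrated cells (-0.21 ± 0.19, adjusted p = 0.422). Ifitm3 lay at 306, 293 and 397 CPM in skin against 413, 442 and 304 CPM in joint (0.22 ± 0.19, adjusted p = 0.411). Of the 6 synthetase genes, Oas3, Oasl1 and Oasl2 were called, and Oas1a, Oas1g and Oas2 were not. Oas1a and Oas1g are 97.5% identical over 1860 aligned bases and share the same uncertainty as the Ifit3 pair. Members with the ISRE core in the window (7 of 15 called, median -0.97) and those without (8 of 13, median -1.41) both lay lower in joint.

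**Figure D3:**
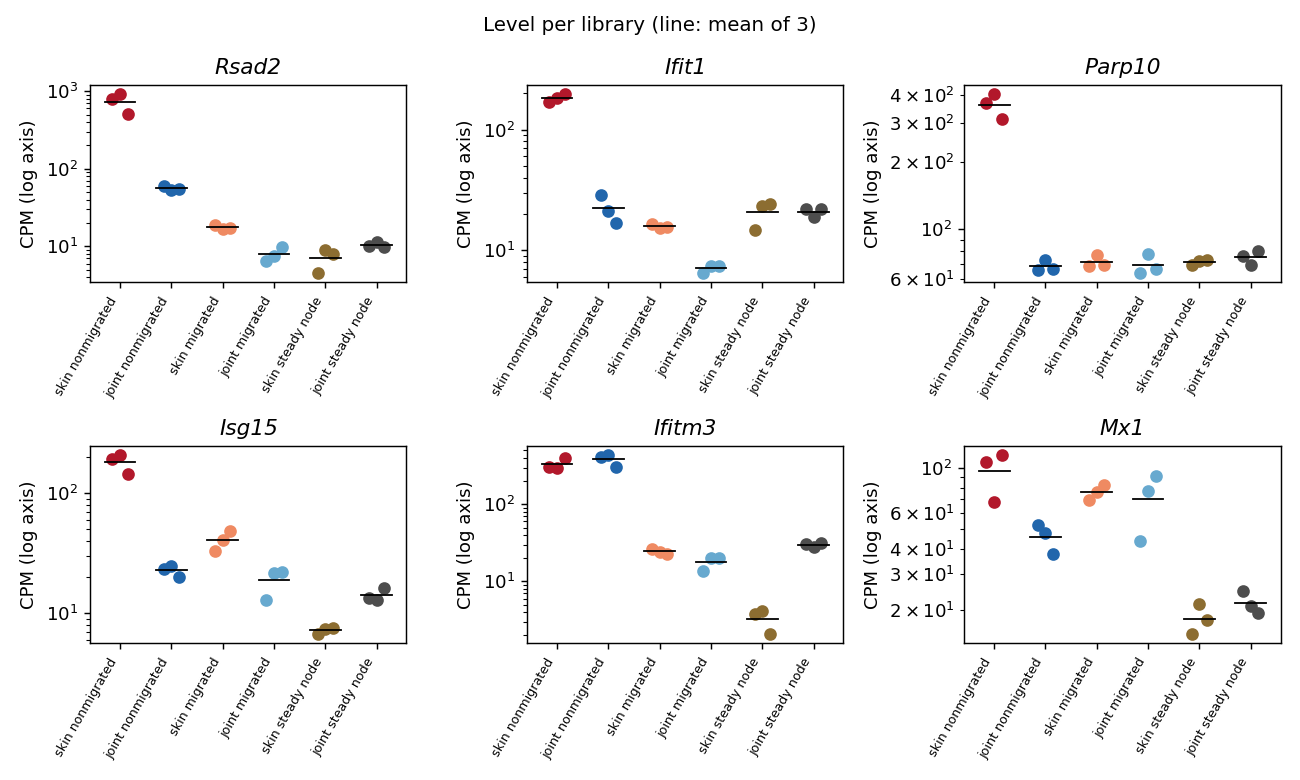
CPM on a log axis for 6 members in each library, by group; lines are means of 3. Rsad2, Ifit1, Parp10 and Isg15 are highest in skin nonmigrated cells, Ifitm3 is high in both tissues, and Mx1 is lowest in the steady-state nodes.

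The next comparisons asked how cells that left a tissue differ from those that stayed. In skin, 28 of 38 members were lower in migrated than in nonmigrated cells and 0 were higher, where 20.9% of genes were called, 12.4% lower and 8.49% higher. The median log2 fold change was -2.25. In the joint, 19 of 38 were lower and 0 higher, where 21.4% of genes were called, 12.6% lower and 8.8% higher, with a median of -1.03.

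In skin, Rsad2 went from 781, 922 and 502 CPM in nonmigrated to 18.7, 16.9 and 17.3 CPM in migrated cells (-5.39 ± 0.25, adjusted p = 4.34e-08). Oasl2, a synthetase-like protein, went from 312, 333 and 432 to 24.4, 27.2 and 33.2 CPM (-3.67 ± 0.17). Ifit1 went from 168, 183 and 197 to 16.7, 15.4 and 15.6 CPM (-3.53 ± 0.18). For each of these genes the groups lay far apart. Cmpk2 went from 84, 83.3 and 93 to 15.4, 14.8 and 13.3 CPM (-2.59 ± 0.13). Among the factors, Irf7 went from 402, 407 and 650 to 53.5, 51.1 and 55.7 CPM (-3.19 ± 0.20) and Stat2 from 418, 407 and 403 to 89, 105 and 102 CPM (-2.06 ± 0.11). Irf9 went from 158, 174 and 164 to 82.3, 105 and 90.3 CPM and was not called (-0.84 ± 0.10). The other uncalled members were Ddx58, Mx1, Usp18, Parp9, Dtx3l, Bst2, Eif2ak2, Sp100 and Ifi35, with log2 fold changes from -0.94 to 0.15.

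In the joint, the 4 members with the smallest adjusted p were Ifitm3, Oasl2, Oas2 and Rsad2. Ifitm3 went from 413, 442 and 304 CPM in nonmigrated to 13.5, 20.2 and 20 CPM in migrated cells (-4.43 ± 0.21, adjusted p = 1.13e-07). Oasl2 went from 137, 136 and 133 to 12.1, 12.6 and 15.6 CPM (-3.33 ± 0.16). The groups of both genes were far apart. Oas2 went from 124, 103 and 123 to 7.2, 7.73 and 11.1 CPM (-3.74 ± 0.21), and Rsad2 from 60.7, 52.6 and 55.5 to 6.57, 7.43 and 9.88 CPM (-2.82 ± 0.22). All 6 synthetase genes were called lower at both sites. Irf7 went from 214, 207 and 157 to 50.5, 49.6 and 43.6 CPM (-2.0 ± 0.19). Stat2 (-0.71 ± 0.11) went from 151, 131 and 123 to 75, 89.8 and 82.1 CPM, and Irf9 (-0.21 ± 0.10) from 94.9, 89 and 82.8 to 75.9, 79.8 and 74.9 CPM. Neither was called.

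**Figure D4:**
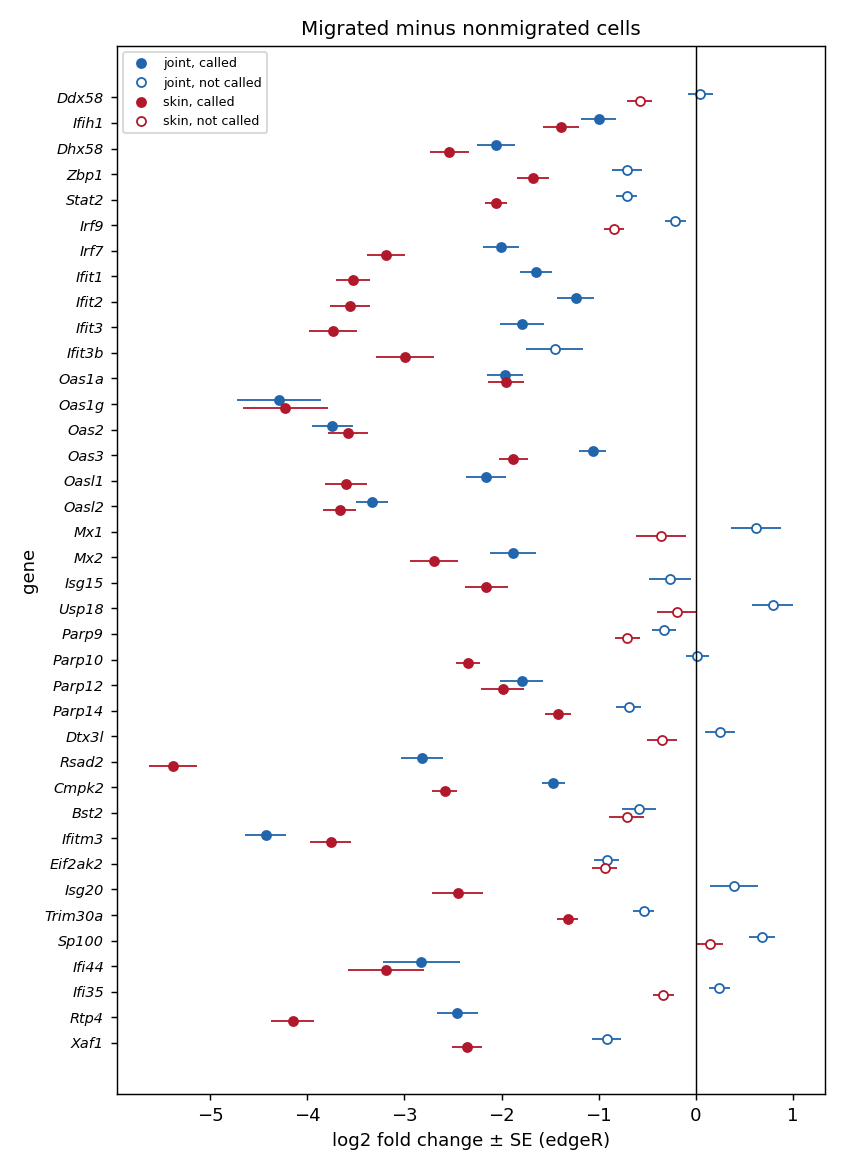
log2 fold change ± SE of each member between migrated and nonmigrated cells (horizontal axis), in the joint (blue) and the skin (red); filled points were called. All called members lie below 0, 19 in the joint and 28 in the skin.

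Whether the change differed between the sites was tested as an interaction. Of the 38 members 1 was called, where 0.119% of genes were called, 0.0656% higher and 0.0536% lower. It was Parp10, which was not called in the joint (0.02 ± 0.12) and was lower in skin migrated cells (-2.34 ± 0.12); the difference was 2.36 ± 0.17 (adjusted p = 0.000125). The members' median difference was 0.80, against -0.012 for all genes, and 14 members passed at adjusted p under 0.05, where 6.13% of genes did, 3.96% higher and 2.17% lower. In all 14 the log2 fold change on migration was higher in the joint than in the skin. Without skin nonmigrated replicate 3, 7 members were called, and without joint nonmigrated replicate 1, 3 were. With the replicate number as a block 0 members were called, where 1 of 16777 genes (0.00596%) was called. Parp10 then had an adjusted p of 0.00143 by edgeR.

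Migrated cells of the 2 sites were compared next. By edgeR 0 of 38 members were called between joint and skin migrated cells, where 0% of 16777 genes were called. An unadjusted p under 0.05 was found for 21 members and for 2770 of the 16777 genes. DESeq2 called 5, where it called 1.06% of genes. At adjusted p under 0.05, where 1.14% of genes were called, 0.56% higher and 0.578% lower, 5 members were lower in joint migrated cells. They were Ifit1 (-1.16 ± 0.17), Oasl2 (-1.07 ± 0.15), Rsad2 (-1.15 ± 0.21), Isg15 (-1.12 ± 0.22) and Ifit3b (-1.42 ± 0.30). The median of the members was -0.35, and 36 of 38 had a log2 fold change below 0, as did 8432 of the 16777 genes.

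Migrated cells from inflamed tissue were then compared with the steady-state node of the same site. In the joint, 9 members were lower and 1 was higher, where 15.9% of genes were called, 3.5% lower and 12.4% higher. The lower members were Ifit1, Ifit3, Ifit3b, Oas2, Oasl1, Oasl2, Mx2, Ifi44 and Rtp4. Oas2 went from 69.4, 74.6 and 56.8 CPM in the steady-state node to 7.2, 7.73 and 11.1 CPM in migrated cells (-2.91 ± 0.19, adjusted p = 7.19e-08). Oasl1, which restrains Irf7 translation, went from 23.6, 23.5 and 27.8 to 5.11, 6.21 and 7.52 CPM (-1.96 ± 0.18). Rtp4, a receptor-transporting protein, went from 25.3, 25.3 and 32.2 to 11.2, 8.45 and 7.61 CPM (-1.57 ± 0.17). Ifit3 went from 25.3, 22.6 and 25.5 to 8.35, 8.69 and 6.09 CPM (-1.63 ± 0.18). In all 4 genes the groups did not overlap. Against this direction, Mx1, a dynamin-like GTPase, rose from 24.6, 21 and 19.2 to 43.4, 77 and 91.2 CPM (1.74 ± 0.22, adjusted p = 1.99e-05). Mx2 fell (-1.75 ± 0.20), so the Mx genes, neighbours on chromosome 16, moved in opposite directions. Irf7 lay at 87.5, 87 and 100 CPM in the steady-state node (-0.90 ± 0.10), Stat2 at 118, 122 and 113 CPM (-0.48 ± 0.09) and Irf9 at 112, 132 and 138 CPM (-0.70 ± 0.10). None of the 3 was called. Without joint migrated replicate 1, 15 members were called, 3 of them higher.

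In skin, 9 members were higher and 2 lower in migrated cells than in the steady-state node, where 25.1% of genes were called, 16.6% higher and 8.51% lower. The median of the members was -0.07, against 0.00157 for all genes. With 27 of the 38 members not called, the calls in either direction are near the share of all genes. For 13 members all migrated libraries lay above all steady-state node libraries, for 13 they lay below, and 12 overlapped. Among the genes expressed, 34.1% lay above and 34.2% below. As a set, the members were therefore near all genes in this comparison, and the values below describe single members. Ifitm3 went from 3.74, 4.07 and 2.08 to 26.7, 24.2 and 22.7 CPM (2.91 ± 0.22, adjusted p = 9.63e-08). Isg15 went from 6.7, 7.43 and 7.57 to 33.4, 41 and 49 CPM (2.54 ± 0.20). Parp12, an ADP-ribosyltransferase, went from 9.28, 10.5 and 10.3 to 31.6, 45.4 and 43.1 CPM (2.03 ± 0.19). The groups of these 3 genes, which were picked by adjusted p, did not overlap. Mx1 went from 15.2, 21.3 and 17.8 to 69.3, 76.5 and 82.2 CPM (2.10 ± 0.22). The other members called higher were Ifih1, Oas1a, Oas1g, Usp18 and Rsad2. Oas2 went from 33.3, 44 and 29.9 down to 12.3, 12 and 9.48 CPM (-1.63 ± 0.19) and Mx2 from 6.57, 7.25 and 7.57 to 2.93, 3.7 and 2.48 CPM (-1.20 ± 0.21). Irf7 (-0.41 ± 0.10), Irf9 (-0.31 ± 0.10) and Stat2 (-0.12 ± 0.09) were not called.

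**Figure D5:**
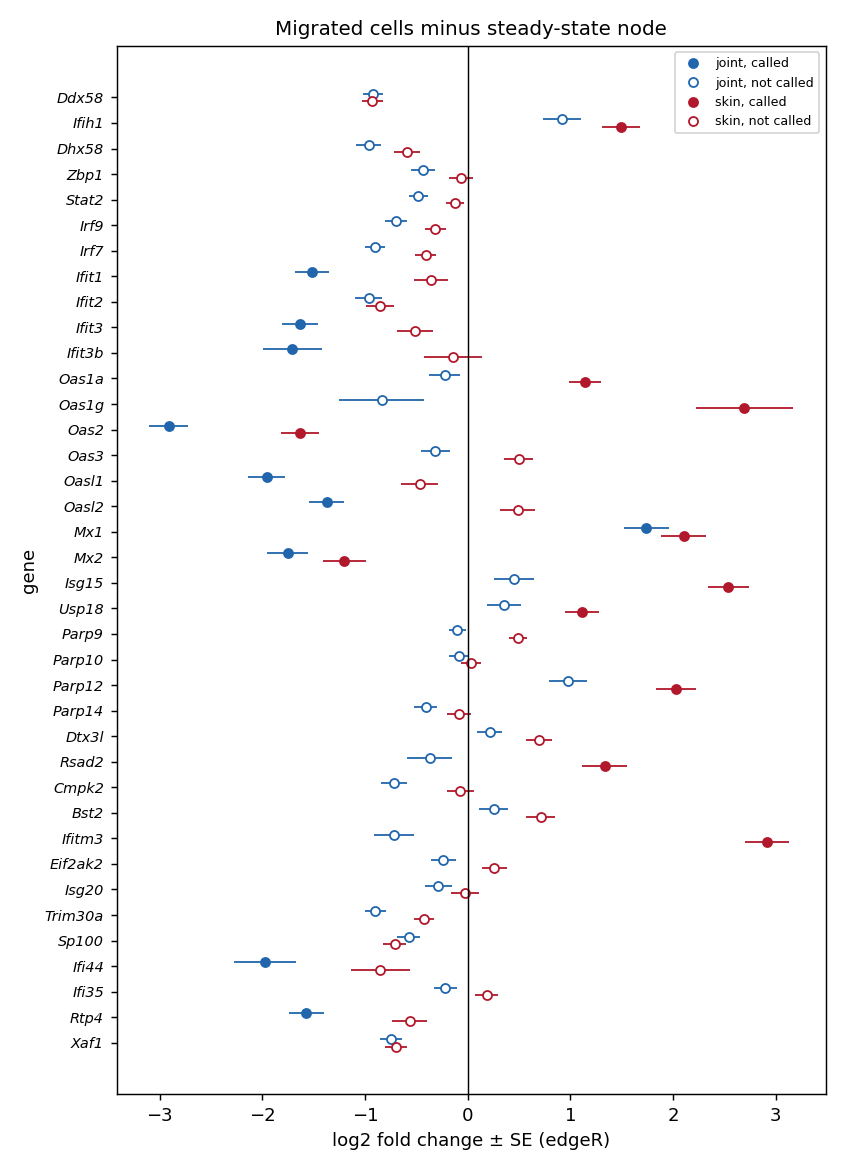
log2 fold change ± SE of each member between migrated cells and the steady-state node of the same site (horizontal axis), in joint (blue) and skin (red); filled points were called. Mx1 lies above 0 and Oas2 and Mx2 below 0 at both sites, and Ifitm3 and Isg15 were called in the skin.

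An interaction between site and the change from the steady-state node, added after the data had been seen, called 3 members, all of them with a lower change in the joint, where 0.889% of genes were called, 0.696% lower and 0.193% higher. These were Ifitm3 (-3.63 ± 0.29, adjusted p = 2.15e-05), Isg15 (-2.09 ± 0.28) and Oasl2 (-1.86 ± 0.24). In 8 of the 12 fits that left out 1 library, Ifitm3 was the 1 member called. The joint steady-state node is titled PBS and the skin one Naive. Site therefore cannot be told apart from any difference in treatment, here or in that interaction. Between the steady-state nodes themselves, 1 member was called, where 1.44% of genes were called, 1.4% higher and 0.0409% lower. Ifitm3 lay at 30.4, 28.1 and 31.7 CPM in the joint steady-state node against 3.74, 4.07 and 2.08 CPM in the skin one (3.17 ± 0.22, adjusted p = 2.82e-06). The 7 neutrophil markers moved with it, at 418 to 820 CPM against 11.1 to 17.9 CPM, and their part in this difference was not tested.

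The interferons themselves were near the floor of detection. Of 21 interferon genes listed, 18 of them type I, 12 had no count in any library, 6 had at most 3 counts, and 3 had more. Ifnb1, interferon beta, had 4, 5 and 10 counts in the skin nonmigrated libraries, 4, 0 and 0 in the joint nonmigrated ones and 0 in the other 12, where a count of 0 allows up to 3 counts a library. Ifnb1 did not pass the filter on low counts and was not tested. Ifng, interferon gamma, was the only ligand with enough counts. It rose in migrated cells over the steady-state node at the joint (2.87 ± 0.19, adjusted p = 7.28e-08) and the skin (3.18 ± 0.19, adjusted p = 1.68e-08). Between nonmigrated cells it lay at 60.5, 96 and 14.9 CPM in skin against 9.8, 16.8 and 27.4 CPM in joint, with overlap, and was not called (-1.67 ± 0.53). At adjusted p under 0.05 by edgeR it passed as lower in joint, where 8.86% of genes did.

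Both receptor chains fell on migration at both sites. Ifnar1 changed by -1.12 ± 0.11 in the joint and -1.18 ± 0.11 in the skin, and Ifnar2 by -1.35 ± 0.13 and -1.37 ± 0.14, all called. Between nonmigrated cells of the 2 tissues neither differed by the test (0.08 ± 0.11 and -0.20 ± 0.13). Socs1, the feedback inhibitor of the receptor's kinases, was called lower in joint than in skin nonmigrated cells (-2.39 ± 0.12, adjusted p = 3.16e-06). Socs1 lay at 108, 119 and 95.1 CPM in skin nonmigrated cells, at 22.5, 18.8 and 20.2 CPM in joint nonmigrated cells, at 36.9, 38.7 and 40 CPM in skin migrated cells and at 37.8, 43 and 44.6 CPM in joint migrated cells. It thus fell on migration in skin (-1.48 ± 0.12) and rose in the joint (1.03 ± 0.11), and the site difference was 2.51 ± 0.16 (adjusted p = 7.99e-05). Of the 14 genes of interferon induction, 1 was called between nonmigrated cells, where 1.9% of all genes were lower and 1.14% higher. It was Irf1 (-1.35 ± 0.16), at 626, 845 and 593 CPM in skin against 286, 276 and 252 CPM in joint. Of the 14 listed receptor and signalling genes, 2 were lower and 0 higher there. On migration 5 were lower and 2 higher in the joint, where 12.6% and 8.8% of all genes were. In the skin 5 were lower and 1 higher, where 12.4% and 8.49% were.

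A further list of 34 interferon-stimulated genes, 33 of them tested, held 7 called lower and 0 higher in joint than in skin nonmigrated cells, with a median of -1.04, where 1.9% of all genes were lower and 1.14% higher. Those with the smallest adjusted p were Ddx60 (-1.24 ± 0.15), a helicase, and Slfn1 (-1.52 ± 0.19), a Schlafen family gene. On migration 14 were lower and 1 higher in the skin, and 10 lower and 4 higher in the joint. Of all genes, 12.4% were lower and 8.49% higher in the skin, and 12.6% lower and 8.8% higher in the joint, so that the 4 of 33 higher in the joint are near the share of all genes. Ifi204, a DNA sensor, had the smallest adjusted p at both sites (-5.47 ± 0.26 in skin, -4.90 ± 0.26 in joint), and Phf11b was higher at both (1.33 ± 0.14 and 1.32 ± 0.14). Against the steady-state node, 3 were higher and 6 lower in joint migrated cells, and 8 higher and 7 lower in skin migrated cells. Of all genes, 12.4% were higher and 3.5% lower in the joint, and 16.6% higher and 8.51% lower in the skin. Ifitm2 (5.17 ± 0.26) and Ifitm1 (5.90 ± 0.30), relatives of Ifitm3, had the smallest adjusted p in the skin. Both were also higher in the joint steady-state node, titled PBS, than in the skin one, titled Naive (3.63 and 5.38).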

How the data were processed

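The authors trimmed paired reads with Trim Galore, aligned them with TopHat2 to mm10 and counted them per gene with HTSeq under default settings; the deposited values are raw counts. The 5 summary lines were removed. Genes were placed with GENCODE M21 (GRCm38), which held 49326 of the 49585. The members, lists, threshold and tests were chosen with earlier results of these data known. Counts were tested with edgeR 4.0.16 in R 4.3.3 (quasi-likelihood F test, TMM, filterByExpr with a minimum count of 10, Benjamini-Hochberg adjustment over all genes tested). A gene was called at adjusted p under 0.001 and absolute log2 fold change above 1; the study's methods used 0.05. The 12 inflamed libraries shared one fit (16777 genes) and the 12 node libraries another (17107). SE is the log2 fold change over the root of F. CPM used TMM library sizes over 18 libraries; mean levels added a pseudocount of 1. The floor was 3 counts per library, which covers counting error only.

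Per comparison, values by library are given for the 4 called members per direction that ranked first by adjusted p, for called members against the majority, and for Irf7, Irf9 and Stat2; further members were named after their values were seen. From the lists the 2 first-ranked called genes per direction could be named, besides Ifnb1, Ifng, Ifnar1, Ifnar2, Socs1 and Irf1. One further gene is not reported here. DESeq2 1.42.0 was an alternative. The strandedness of the libraries is not given in the sources used here, so overlapping genes are uncertain (Parp10 with Plec and Irf9 with Rnf31 on the same strand; Parp9 with Dtx3l, Irf7 with Phrf1 on opposite strands).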

Additional observations from a re-analysis of the deposited data

Results flagged for a closer look

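The change of Parp10 on migration differed between joint and skin (2.36, SE 0.17, adjusted p = 0.000125, edgeR). It was 0.02 in the joint and -2.34 in the skin. Parp10 lay at 312 to 406 CPM in skin nonmigrated cells and at 63.5 to 79.6 CPM in all other libraries. The site difference therefore rests on the skin nonmigrated libraries and is not separate from the difference between nonmigrated cells. With the replicate number as a block its adjusted p by edgeR was 0.00143 and the call was lost. That fit called 1 of 16777 genes (0.00596%).

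The change from the steady-state node differed between joint and skin for Ifitm3 (-3.63, SE 0.29, adjusted p = 2.15e-05), Isg15 (-2.09, SE 0.28, adjusted p = 0.000521) and Oasl2 (-1.86, SE 0.24, adjusted p = 0.000435), by edgeR. The steady-state nodes are titled PBS for the joint and Naive for the ear, so site cannot be told apart from any difference in treatment. The Ifitm3 call held in each of the 12 fits that left out 1 library. In 8 of these fits Ifitm3 was the 1 member called: those without skin migrated replicate 2 or 3, skin steady-state node replicate 1 or 3, joint migrated replicate 2, or any of the joint steady-state node replicates. All groups have 3 libraries, so no library was tested as standing apart.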

How the results depend on the processing

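Of the 92 calls of members, all 92 were kept with DESeq2's size factors, by the DESeq2 Wald test and without the filter. All were also kept under a filter of 10 counts in all samples of any 1 group and in the fit of all 18 libraries. None reversed under any alternative. The looser rule of adjusted p under 0.05, applied to the same fit, could lose no call. Fitting only the groups compared kept 65 of 88 calls. Between joint and skin nonmigrated cells 0 members were then called, where 0 of 15385 genes were called. Between migrated cells, 5 were called at adjusted p under 0.05, 5 by DESeq2 and 4 with the block at 0.05. Of all genes, 1.14% were called at 0.05 and 1.06% by DESeq2. For the site difference of the migration change the counts were 14, 13 and 13 in that order, 10 without the filter, 11 with 18 libraries and 0 with the replicate block. The share of all genes moved too, from 0.119% under the main rule to 6.13% at 0.05, 3.94% by DESeq2 and 0.00596% with the replicate block. Shares under the other settings are not given here. For the site difference of the change from the steady-state node the counts were 13, 10 and 11, and 10 without the filter. Of all genes, 0.889% were called under the main rule, 6.11% at 0.05 and 3.49% by DESeq2. Between the steady-state nodes 2 were called at 0.05, by DESeq2, without the filter, with the block at 0.05 and in the fit of 2 groups. There 3.89% of all genes were called at 0.05, 2.86% by DESeq2 and 2.1% in the fit of 2 groups. The cause of these shifts was not tested. The block at 0.05 and the comparison of the changes from the steady-state nodes were chosen after seeing the data.

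The labels do not say whether same-numbered libraries share a pool of mice, and the main fit did not pair them. Between migrated and nonmigrated cells, the correlation of their deviations ran from 0.021 to 0.254 in the joint and from 0.0735 to 0.173 in the skin. There 5 of 6 and 6 of 6 libraries were closest to their own number. Between joint and skin migrated cells 5 of 6 were, and between migrated cells and the steady-state node 0 of 6 at either site. Whether libraries are paired is therefore uncertain. The replicate block kept 82 of the 92 calls. It called 18 members in the joint migration comparison, 28 in the skin one and 15 between nonmigrated cells. Against the joint and skin steady-state nodes it called 9 and 9, with 2 for their site difference and 1 between the nodes. Of all genes it called 16.8%, 16.4%, 1.22%, 12.9%, 20.9%, 0.491% and 0.953% in the same order.

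Leaving out 1 library gave 17 to 19 members in the joint migration comparison, 28 to 29 in the skin one, 13 to 18 between nonmigrated cells, 0 to 0 between migrated cells, 1 to 7 for the site difference of the migration change (7 without skin nonmigrated replicate 3, 3 without joint nonmigrated replicate 1), 9 to 15 and 8 to 11 against the joint and skin steady-state nodes, 1 to 4 for their site difference and 1 to 1 between the nodes. Shares over all genes are not given here for these fits. Oas1g and Ifi44, at under 3 CPM on average in the node groups, are limited by depth.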

Other observations

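Genes associated with interferon gamma, a list of 18 that overlaps the lists above, Socs1 and Irf1 included, showed 9 called lower and 0 higher in joint than in skin nonmigrated cells, where 1.9% of genes were called lower, with a median log2 fold change of -1.45. The smallest adjusted p belonged to Socs1 and Nos2, the inducible nitric oxide synthase (-4.14 ± 0.31, adjusted p = 2.94e-05). Against the steady-state node, 6 were higher and 1 lower in joint migrated cells, and 10 higher and 0 lower in skin migrated cells, where 12.4% and 16.6% of genes were called higher. The chemokine Cxcl9 (3.27 ± 0.27 in the joint, 3.84 ± 0.26 in the skin) and the GTPase Gbp2 (1.75 ± 0.17 and 2.82 ± 0.18) rose at both sites. Of the 38 members of the type I set, 1 was called higher and 9 lower in the joint, and 9 higher and 2 lower in the skin. Of all genes, 3.5% and 8.51% were called lower. A difference between the 2 lists was not tested.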
